A study of Mus musculus with 4 samples.

Results

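The 10 genes described here mark the endothelium, the cell layer that lines blood vessels, or belong to the Notch signalling that arterial endothelium is known for. They are Pecam1, Cdh5, Vwf, Emcn, Sox17, Sox18, Notch1, Dll4, Jag1 and Hey1. They were taken by name, and every probe set (a group of short probes for 1 transcript) whose platform annotation names exactly 1 of them was used. This gave 15 of 22626 probe sets, with 2 probe sets for each of 5 genes and 1 for each of the other 5. RNA came from the aorta of female mice that were 6 weeks old and, in every group, apoE-/-, a defect that slows the clearance of lipoproteins and raises blood cholesterol. The 4 groups were C3H/HeJ apoE-/- mice (C3H below) on Western diet, C57BL/6 apoE-/- mice on Western diet, C3H apoE-/- mice on chow and C57BL/6 apoE-/- mice on chow. All were weaned at 3 weeks, and the diets of the groups differed from the age of 4 weeks, for 2 weeks. The Western diet groups are labelled as extreme hyperlipidemia and the chow groups as hyperlipidemia. Each group had 1 array, no mouse with intact apoE was analysed here, and the labels do not say whether the RNA on an array came from 1 aorta or from several. A difference between 2 arrays below is therefore a value without a test.

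Endothelial cells are held together by the adhesion proteins PECAM1 (CD31) and VE-cadherin, the product of Cdh5, and they store von Willebrand factor (Vwf) for clotting. The transcription factors SOX17 and SOX18 act early in the formation of vessels, and SOX17 is known for its part in arterial fate. In Notch signalling a ligand on 1 cell, such as DLL4 or JAG1, binds a NOTCH receptor on the next. The receptor is then cleaved, and its inner part enters the nucleus and with RBPJ switches on genes of the Hes and Hey families, Hey1 among them.

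Apoe, the deleted gene, had a signal under the floor on every array (55.5 on C3H Western against 65.3 on C57BL/6 Western, and 16.1 on C3H chow against 19.1 on C57BL/6 chow); no array of intact mice stands beside it, and where its probes lie relative to the deletion was not examined. The labelled tissue was checked against its markers. All 6 endothelial identity genes and all 10 smooth muscle markers were above the floor on all 4 arrays, the floor being a signal of 83.6, the 40th percentile of all values. A signal at or under the floor is treated as a bound. The C3H chow array stood apart, with hybridization controls at a median of 6288 (3170 to 3670 on the other arrays) and an actin 3'/5' ratio of 2.28 (1.63 to 1.83), whereas for Gapdh the 3'/5' ratio was 1.19 there and 1.03 to 1.28 elsewhere. Heart muscle markers differed widely between the strains. Of 12 markers, 3 were above the floor on C3H Western against 12 on C57BL/6 Western, and 3 on C3H chow against 11 on C57BL/6 chow. A bulk array cannot tell fewer endothelial cells from less RNA per endothelial cell.

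Pecam1 had signals of 1759 on C3H Western against 1884 on C57BL/6 Western, and 1398 on C3H chow against 1815 on C57BL/6 chow. Its C3H chow signal was the lowest, 1.30-fold below C57BL/6 chow, and the other 3 arrays lay close together. Cdh5, by its brighter probe set 1433956_at, had signals of 387 on C3H Western against 348 on C57BL/6 Western, and 416 on C3H chow against 348 on C57BL/6 chow. Both strains on both diets were thus within 1.20-fold of each other by this set. Its other probe set, 1422047_at, was dim, at 66.9 on C3H Western against 87.3 on C57BL/6 Western, and 124 on C3H chow against 133 on C57BL/6 chow. By that set the Western diet arrays were the lower ones in both strains, by 1.53-fold in C57BL/6 and at least 1.48-fold in C3H, which the brighter set did not show (log2 0.00 in C57BL/6 and -0.10 in C3H).

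Emcn encodes endomucin, a sialomucin of the endothelial surface that is known to be more abundant in veins and capillaries than in arteries. It had signals of 636 on C3H Western against 640 on C57BL/6 Western, and 451 on C3H chow against 528 on C57BL/6 chow. Both Western diet arrays were above both chow arrays, by 1.41-fold in C3H and 1.21-fold in C57BL/6.

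Vwf had signals of 891 on C3H Western against 1731 on C57BL/6 Western, and 1171 on C3H chow against 1451 on C57BL/6 chow. Both C3H arrays were below both C57BL/6 arrays, by 1.94-fold on Western diet and 1.24-fold on chow. Von Willebrand factor is also made by megakaryocytes, and the summed signal of 6 platelet and megakaryocyte markers was 1588 on C3H Western against 1703 on C57BL/6 Western, and 788 on C3H chow against 1094 on C57BL/6 chow. The summed signal of the heart muscle markers was likewise lower in C3H on both diets. It was 751 on C3H Western against 13636 on C57BL/6 Western, and 698 on C3H chow against 17421 on C57BL/6 chow. The part of either in the Vwf values was not tested.

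**Figure D1:**
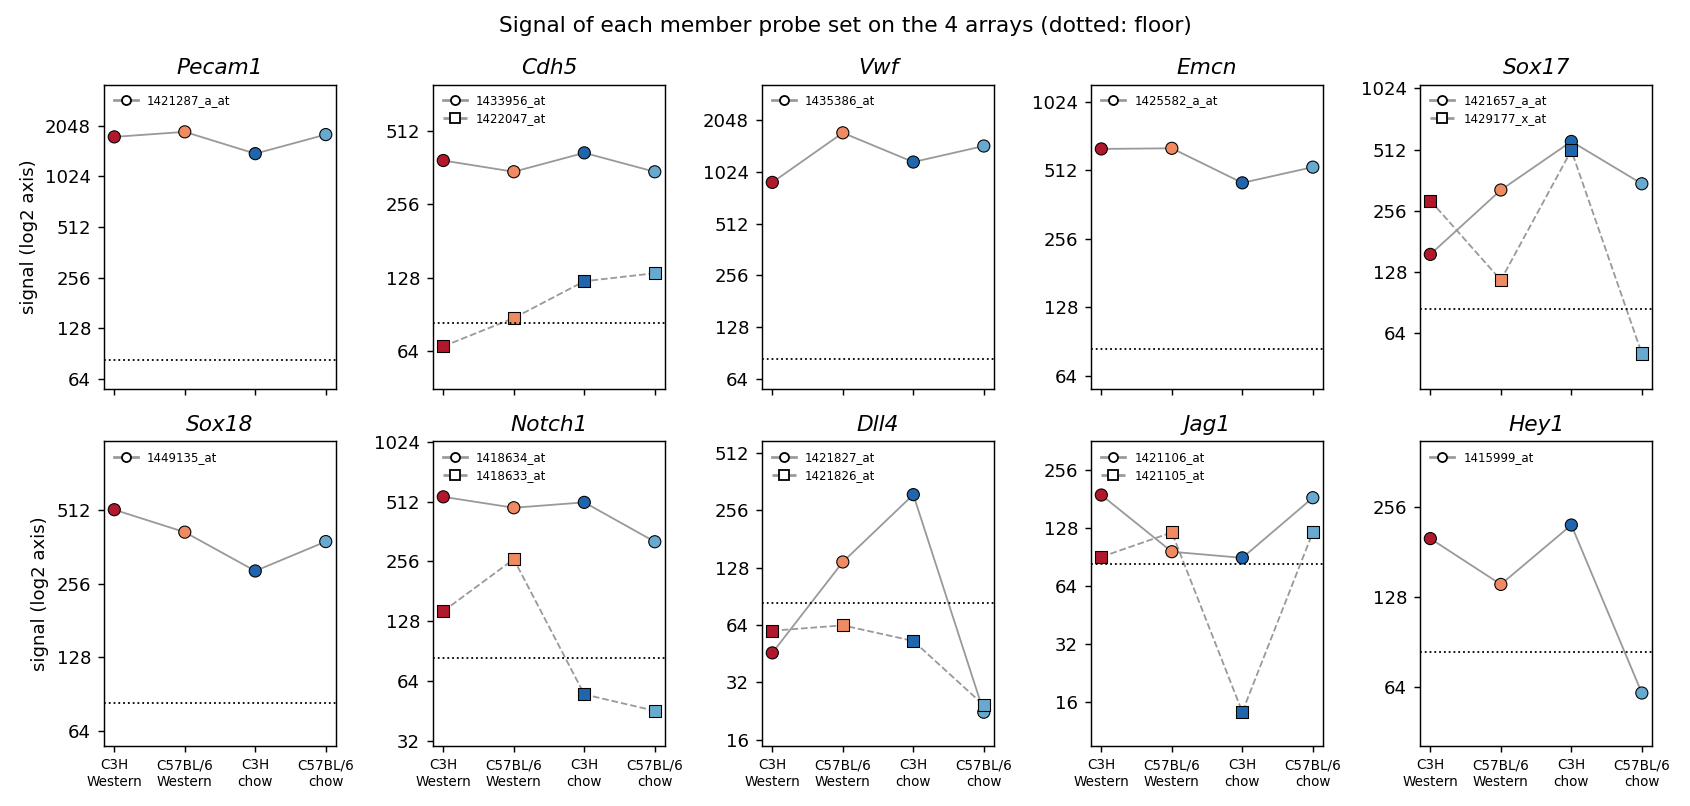
Signal of each probe set of the 10 genes on the 4 arrays, on a log2 axis with its own range for each gene. Points are arrays, circles and solid lines the gene's brighter probe set, squares and dashed lines its other one, and the dotted line is the floor of 83.6. Pecam1, Cdh5 (brighter set) and Emcn stay within a narrow band, while the probe sets of Sox17, Notch1 and Jag1 differ in their pattern over the arrays, and 1 of the Dll4 sets is under the floor on every array.

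Sox18 and Sox17, close relatives in the SOXF group, ran in opposite directions over the C3H arrays. Sox18 had signals of 514 on C3H Western against 416 on C57BL/6 Western, and 289 on C3H chow against 381 on C57BL/6 chow. With Western diet its signal was 1.78-fold above chow in C3H and 1.09-fold above it in C57BL/6. Sox17, by probe set 1421657_a_at, had signals of 156 on C3H Western against 323 on C57BL/6 Western, and 561 on C3H chow against 347 on C57BL/6 chow. The C3H arrays were thus its lowest and its highest, a 3.61-fold lower signal with Western diet, while C57BL/6 differed by 1.07-fold. The other Sox17 probe set, 1429177_x_at, carries the array maker's mark for probes that may also match other sequences. It had signals of 287 on C3H Western against 116 on C57BL/6 Western, and 507 on C3H chow against 50.4 on C57BL/6 chow. By this set both C3H arrays were above both C57BL/6 arrays, 2.47-fold on Western diet and at least 6.06-fold on chow, whereas the first set was 2.08-fold lower in C3H on Western diet and 1.62-fold higher on chow. Both sets placed C3H chow highest and C3H Western below it.

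Notch1 encodes the receptor of arterial endothelium. By its brighter probe set, 1418634_at, it had signals of 541 on C3H Western against 477 on C57BL/6 Western, and 508 on C3H chow against 321 on C57BL/6 chow. C57BL/6 chow was the lowest, 1.58-fold below C3H chow and 1.48-fold below C57BL/6 Western, and the other 3 arrays were within a narrow range. By its other probe set, 1418633_at, the signals were 144 on C3H Western against 263 on C57BL/6 Western, and 54.8 on C3H chow against 45.3 on C57BL/6 chow. Both chow arrays lay under the floor by this set, so that Western diet was at least 1.72-fold higher in C3H and at least 3.14-fold higher in C57BL/6.

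The ligand genes Dll4 and Jag1 ran opposite ways on C3H chow. Dll4, the ligand of tip cells and arterial endothelium, had signals by probe set 1421827_at of 45.7 on C3H Western against 137 on C57BL/6 Western, and 309 on C3H chow against 22.3 on C57BL/6 chow. C3H chow was highest and 2 arrays lay under the floor. In C3H this set was at least 3.69-fold lower with Western diet, and in C57BL/6 it was at least 1.64-fold higher. Its other probe set, 1421826_at, was under the floor on every array (59.7 on C3H Western against 63.7 on C57BL/6 Western, and 52.8 on C3H chow against 24.3 on C57BL/6 chow) and gives no difference. Jag1, a ligand of endothelium and of smooth muscle, had signals by probe set 1421106_at of 191 on C3H Western against 96.7 on C57BL/6 Western, and 89.8 on C3H chow against 185 on C57BL/6 chow. Its Western diet signal was 2.12-fold above chow in C3H but 1.91-fold below it in C57BL/6, and the lower of these signals were near the floor. By probe set 1421105_at Jag1 had signals of 90.8 on C3H Western against 122 on C57BL/6 Western, and 14.2 on C3H chow against 122 on C57BL/6 chow. This set was lowest on C3H chow too, at least 1.46-fold below C57BL/6 chow, but it did not differ with diet in C57BL/6 (log2 -0.00). On C3H chow the ligand genes thus stood at opposite ends, with Dll4 at its highest and both Jag1 sets at their lowest. For 1421106_at that rank rests on the scaling. As deposited, its lowest signal was on C57BL/6 Western (90.3, against 97.1 on C3H chow). Smooth muscle markers were lowest on C3H chow as well, their summed signal being 72178 on C3H Western against 75919 on C57BL/6 Western, and 44669 on C3H chow against 100621 on C57BL/6 chow, and between the chow arrays 9 of the 10 were lower in C3H, with a median log2 difference of -0.81. Their part in the Jag1 values was not tested.

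For these ligand genes, whose signals ran opposite ways on C3H chow, the 250 bases before the annotated start are shown (RefSeq, GRCm38.p6, each in the direction of its gene). A window was found for 4 of the 10 genes, the others being Notch1 and Emcn. The Dll4 window is chr2:119325534-119325783 on the plus strand and that of Jag1 chr2:137116521-137116770 on the minus strand. Capitals mark a match, on either strand, to one of 4 short motifs, TGGGAA (core of the RBPJ motif), ACAATG or ACAAAG (SOX motifs) or CCGGAA (an ETS motif).
Dll4: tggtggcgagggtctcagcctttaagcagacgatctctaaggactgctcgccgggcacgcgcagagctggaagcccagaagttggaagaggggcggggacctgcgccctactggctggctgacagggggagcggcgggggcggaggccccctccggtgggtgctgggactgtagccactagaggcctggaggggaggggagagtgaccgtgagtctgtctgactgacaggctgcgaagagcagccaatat
Jag1: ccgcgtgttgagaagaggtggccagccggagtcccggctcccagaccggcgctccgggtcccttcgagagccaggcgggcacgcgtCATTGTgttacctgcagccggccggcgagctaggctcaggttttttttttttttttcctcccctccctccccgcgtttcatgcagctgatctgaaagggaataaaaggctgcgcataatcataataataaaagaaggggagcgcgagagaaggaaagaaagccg
The windows are rich in G and C (65.6% for Dll4 and 57.2% for Jag1). Only Jag1, of the 4 windows, held a match, to ACAATG on the opposite strand from base -164 to base -159 relative to the start. Among 32851 such windows of all genes, 10.7% held ACAATG, 16.5% ACAAAG, 21.6% TGGGAA and 12% CCGGAA, so a match or its lack in 4 windows is a description and not a site.

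Hey1, the Notch target among the 10, had signals of 200 on C3H Western against 141 on C57BL/6 Western, and 222 on C3H chow against 61.1 on C57BL/6 chow. Both C3H arrays were above both C57BL/6 arrays, by 1.42-fold on Western diet and at least 2.66-fold on chow, where C57BL/6 was under the floor. In C57BL/6 Hey1 was at least 1.68-fold higher with Western diet, and in C3H it was 1.11-fold lower. By their brighter probe sets Notch1 and Hey1 had their lowest signal on C57BL/6 chow, Dll4 was under the floor there and on C3H Western, and Jag1 was low on neither of these arrays. The 6 identity genes stood at a median log2 signal, relative to each gene's mean over the arrays, of 0.05 on C3H Western against 0.12 on C57BL/6 Western, and -0.20 on C3H chow against 0.03 on C57BL/6 chow.

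Between the strains on chow, 8 of the 10 genes were above the floor on both arrays by the brighter probe set. Of these, 1 was at least 2-fold different (Jag1, 2.06-fold lower in C3H), where 17.1% of 6605 genes were, and their median log2 difference was -0.27 against 0.03 for all genes. The values as deposited, without quantile normalization, put Jag1 at log2 -0.94, under 2-fold. Between the strains on Western diet, 1 of 9 genes was at least 2-fold different (Sox17, 2.08-fold lower in C3H), where 8.27% of 6806 genes were, and the median was 0.15 against 0.00. As deposited, Vwf (log2 -1.02) and Jag1 (1.06) passed 2-fold there too. With diet in C57BL/6, 0 of 8 genes differed at least 2-fold, where 7.67% of 6776 genes did, and the median was 0.09 against 0. As deposited, Jag1 passed there (log2 -1.04). With diet in C3H, 2 of 9 genes did (Sox17 lower and Jag1 higher), where 12.3% of 6690 genes did, and the median was 0.09 against -0.01. As deposited, Jag1 did not pass there (log2 0.95). These shares rest on 8 or 9 genes, and 1 gene more or fewer moves each of them past or below the share of all genes.

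**Figure D2:**
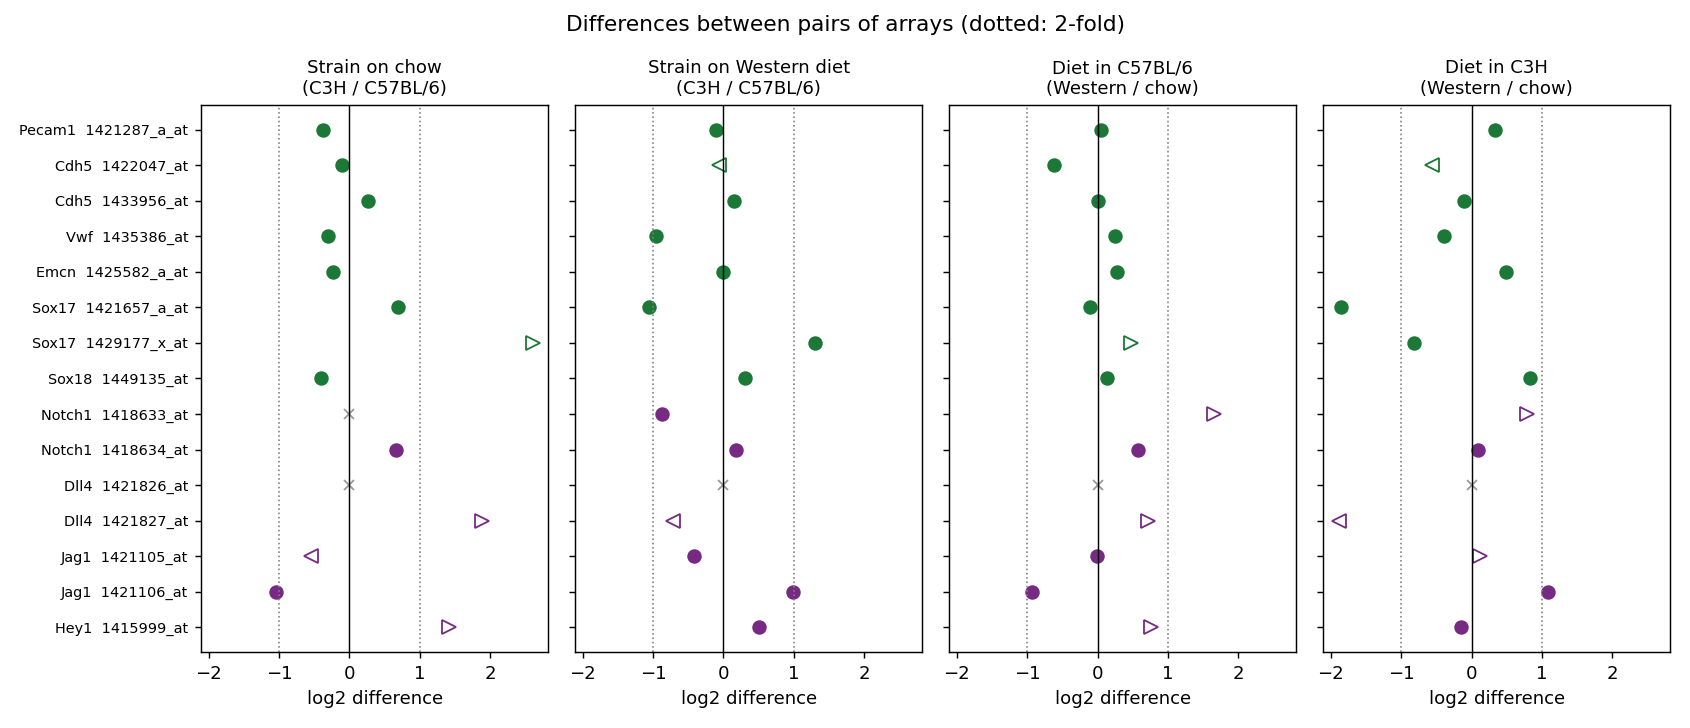
Log2 difference in signal of each probe set in the 4 pairs of arrays, with dotted lines at 2-fold, green for identity genes and purple for Notch genes. Filled points had both arrays above the floor, open triangles are bounds, counting the dim array as being at the floor, and point away from 0 as the bound does, and grey crosses, placed at 0 with no value, had both arrays under it. The brighter sets of the identity genes lie near 0 with diet in C57BL/6, and Sox17 has the lowest measured value with diet in C3H (log2 -1.85).

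Over all 4 arrays, 8 genes were above the floor throughout by the brighter set, and 2 of them, Sox17 and Jag1, differed at least 2-fold between their highest and lowest array, where 35.7% of 5646 genes did. Their median ratio of highest to lowest array was 1.73, against 1.77 for all genes. Counting bounds as well, 4 of the 10 genes (Dll4, Hey1, Jag1 and Sox17) passed 2-fold in at least 1 comparison, where 33.7% of 10777 genes did. In the 2 comparisons without the C3H chow array it was 1 gene (Sox17), where 18.4% of 10180 genes did. Both counts use the brighter sets. The other Sox17 set went the opposite way there, 2.47-fold higher in C3H on Western diet. The other Notch1 set was at least 3.14-fold higher with Western diet in C57BL/6. For scale, the log2 differences of probe sets for the same gene scattered with an SD (pooled over genes) of 0.524 for strain on Western diet and 0.616 on chow, and of 0.506 for diet in C57BL/6 and 0.579 in C3H. Of Pecam1, Cdh5, Emcn and Vwf, the measured differences beyond that scatter were those of Vwf between strains on Western diet (log2 -0.96) and of the dim Cdh5 set with diet in C57BL/6 (log2 -0.61). The dim Cdh5 set was a bound with diet in C3H (log2 -0.57 or lower, beside 0.579) and between strains on Western diet. Neither bound can be placed against the scatter.

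An additive fit with limma over all 4 arrays tested strain across both diets and diet across both strains, with the unreplicated interaction as its only residual. It holds 14 of the 15 probe sets, for all 10 genes, among 14915 tested, and leaves out the dim Dll4 set. For strain, 0 of the 14 passed an adjusted p of 0.05 in limma (0.382% of all probe sets passed), and 1 had an unadjusted p under 0.05 (5.85% of all). That probe set was Sox17 1429177_x_at, with a geometric mean signal of 381 in C3H and 76.5 in C57BL/6, a log2 difference of 2.32 with an SE of 0.71, and an adjusted p of 0.407 in limma. The other Sox17 set gave a log2 difference of -0.18 with an SE of 0.49. Vwf averaged 1021 in C3H and 1585 in C57BL/6, a log2 difference of -0.63 with an SE of 0.31 and a limma adjusted p of 0.847. For Hey1 the averages were 211 in C3H and 92.8 in C57BL/6, a log2 difference of 1.19 with an SE of 0.78 and the same adjusted p in limma. For diet, 0 of the 14 passed in limma (0.0% of all) and 0 had an unadjusted p under 0.05 (2.46% of all), and limma without a mean trend in its variance also called 0 of the 14 for either term. With 2 arrays on each side the smallest two-sided p of an exact permutation test is 0.333, so neither term could be checked that way.

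A list of 25 other endothelial genes, drawn up with earlier results of these data known, was set beside the members. Of its 20 genes above the floor on both chow arrays, 5 were at least 2-fold higher in C3H (8.01% of all genes) and 0 at least 2-fold lower (9.1% of all), with a median log2 difference of 0.61 against -0.27 for the 6 identity genes. A further 3 were above the floor on 1 chow array only and are bounds outside that count. They were Tie1 (252 on C3H chow against 60.2 on C57BL/6 chow), Aplnr (29.7 against 290) and Erg (14.3 against 90.6). Flt1, a VEGF receptor, had a signal of 975 on C3H chow against 190 on C57BL/6 chow, with log2 differences of 0.74 and 1.28 by its other 2 probe sets. Rasip1, a regulator of vessel lumen formation, had 330 on C3H chow against 119 on C57BL/6 chow, and the tight junction gene Cldn5 had 2702 on C3H chow against 1221 on C57BL/6 chow. Kdr, the main VEGF receptor, and the adhesion gene Icam2 were at least 2-fold higher in C3H on both diets. Kdr had 620 on C3H Western against 272 on C57BL/6 Western, and 539 on C3H chow against 265 on C57BL/6 chow. Icam2 had 644 on C3H Western against 291 on C57BL/6 Western, and 844 on C3H chow against 384 on C57BL/6 chow. Of the identity genes, Pecam1, Vwf and Emcn, which mark the same cells, were not higher in C3H on either diet. The brighter Cdh5 set was higher in C3H on both (log2 0.26 on chow and 0.15 on Western diet), and its dim set on neither. Sox17 (1421657_a_at) was higher in C3H on chow only (log2 0.69, against -1.06 on Western diet), and its other set on both. Sox18 was higher in C3H on Western diet only (log2 0.30, against -0.40 on chow). Taking the median of the other endothelial genes off each difference between the chow arrays left Pecam1 at log2 -0.98, Vwf at -0.92, Emcn at -0.83, Sox18 at -1.0 and the brighter Cdh5 set at -0.35, and left Notch1 at 0.05, Sox17 (1421657_a_at) at 0.09 and Jag1 (1421106_at) at -1.65. On Western diet the other endothelial genes had a median of 0.19 (2 of 20 at least 2-fold higher, 4.07% of all, and 1 lower, 4.2% of all), and Pecam1 stood at -0.29, Cdh5 at -0.04, Emcn at -0.20, Sox18 at 0.11, Vwf at -1.15, Sox17 (1421657_a_at) at -1.25 and Jag1 (1421106_at) at 0.79 after the same step. There Flt1 had 157 on C3H Western against 515 on C57BL/6 Western, while its other 2 probe sets gave log2 differences of -0.02 and 0.32.

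With diet the other endothelial genes had a median of -0.28 in C3H, with 1 of 20 at least 2-fold higher (6.47% of all genes) and 1 lower (5.87% of all). In C57BL/6 their median was 0.19, with 2 of 20 higher (3.75% of all) and 1 lower (3.93% of all). In C3H, Flt1 had 157 on Western diet against 975 on chow, and its other 2 probe sets were at log2 -0.85 and -0.66. Lmo2, a transcriptional partner in blood and vessel formation, had 621 on Western diet against 293 on chow in C3H. In C57BL/6, Flt1 ran the other way, with 515 on Western diet against 190 on chow, and its other 2 probe sets were at log2 -0.24 and 0.44. Rasip1 had 285 on Western diet against 119 on chow in C57BL/6. Robo4, a receptor that stabilises endothelium, had 91.8 on Western diet against 254 on chow in C57BL/6. Genes with 1 of the 2 arrays under the floor are bounds outside these counts. In C3H they were Robo4 (11.5 on Western diet against 386 on chow) and Aplnr (184 against 29.7). In C57BL/6 they were Tie1 (296 on Western diet against 60.2 on chow), Aplnr (74.7 against 290) and Erg (80.6 against 90.6).

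**Figure D3:**
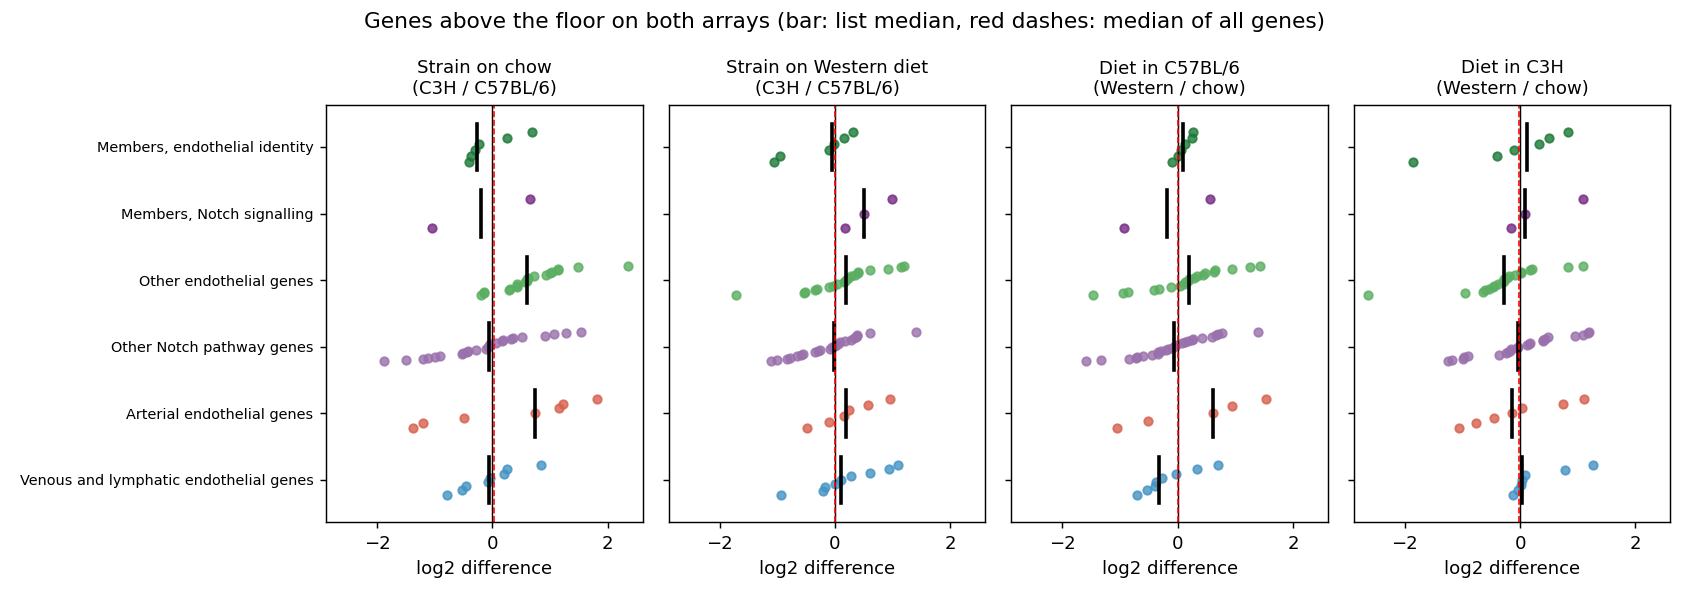
Log2 differences of the members and of the gene lists in the 4 pairs of arrays, for genes above the floor on both arrays by the brightest probe set. Points are genes, black bars list medians and red dashes the median of all genes. On chow the other endothelial genes have a median of 0.61 between the strains, and the identity genes one of -0.27.

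Other genes of the Notch pathway, 34 of 36 listed genes with a probe set, gave medians near 0. Of the 26 above the floor on both chow arrays, C3H was at least 2-fold above for 3 (8.01% of all genes) and below for 4 (9.1% of all), with a median log2 difference of -0.06. The receptor gene Notch2 had a signal of 334 on C3H chow against 1223 on C57BL/6 chow. Ncstn, for the nicastrin subunit of the receptor-cleaving gamma-secretase, had 135 on C3H chow against 381 on C57BL/6 chow. Dtx2, for a deltex ubiquitin ligase, had 272 on C3H chow against 94.1 on C57BL/6 chow. On Western diet 1 of 24 genes was at least 2-fold higher in C3H (4.07% of all) and 2 lower (4.2% of all), with a median of -0.02. There Maml1, a coactivator of the RBPJ complex, had 495 on C3H Western against 187 on C57BL/6 Western, although its other probe set gave log2 -0.45. Numbl, of the Numb family of Notch inhibitors, had 100.3 on C3H Western against 215 on C57BL/6 Western. With diet in C3H, 3 of 23 genes were at least 2-fold up (6.47% of all) and 2 down (5.87% of all), with a median of -0.03, and the target gene Hes1 had 230 on C3H Western against 523 on C3H chow. With diet in C57BL/6, 1 of 27 was at least 2-fold higher (3.75% of all) and 2 lower (3.93% of all), with a median of -0.06. Fbxw7, whose ubiquitin ligase removes the active Notch fragment, had 88.1 on Western diet against 265 on chow in C57BL/6.

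Genes that mark arterial endothelium, 10 of 11 listed, pointed both ways. Of the 7 above the floor on both chow arrays, 3 were at least 2-fold higher in C3H (8.01% of all genes) and 2 lower (9.1% of all). Epas1, a hypoxia-inducible factor, had 397 on C3H chow against 113 on C57BL/6 chow. Nrp1, a VEGF co-receptor, had 953 on C3H chow against 406 on C57BL/6 chow, with log2 differences of 0.96 and 2.37 by its other 2 probe sets. Ltbp4, a matrix gene that smooth muscle and fibroblasts also express, had 671 on C3H chow against 1732 on C57BL/6 chow. In C57BL/6, Epas1 had 327 on Western diet against 113 on chow. On Western diet 0 of the 6 arterial genes above the floor on both arrays reached a 2-fold strain difference (8.27% of all). A further 3 were above the floor on C3H Western only and are bounds outside that count. They were Acvrl1 (201 on C3H Western against 37.3 on C57BL/6 Western), Unc5b (170 against 41.3) and Cxcr4 (86.9 against 26.2). The first 2 were more than 2-fold above the floor on C3H Western, and Cxcr4 was near it. For Efnb2, the arterial ephrin, the Western diet signal was 2.15-fold above chow in C3H and 2.08-fold below it in C57BL/6, while the 1 other probe set above the floor gave log2 0.11 in C3H and -0.19 in C57BL/6. Venous and lymphatic genes had medians between the strains of 0.11 on Western diet and -0.07 on chow.

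Of the marker lists of other cells, several differed widely between the arrays. Fibroblast and matrix markers stood at a median log2 signal, relative to each gene's mean, of 0.10 on C3H Western against -0.33 on C57BL/6 Western, and -0.94 on C3H chow against 0.96 on C57BL/6 chow. Brown adipocyte markers stood highest on C3H chow, and their summed signal was 57606, 49898, 85053 and 43127, with 7 of 7 markers above the floor on each. Immediate early genes, a list tied to tissue handling that holds flow-responsive endothelial factors as well, stood at 0.05, -0.94, 0.85 and 0.03. Over the lists other than the endothelial and Notch ones, some genes with every array above the floor differed at least 2-fold between the strains on both diets. They were the early genes Klf2, Klf4, Atf3 and Nr4a1, higher in C3H, and the muscle genes Pln and Ckm, lower in C3H. Heart muscle markers with a C3H array under the floor are bounds and are not among these genes. Actc1 had 50.7 on C3H Western against 3428 on C57BL/6 Western, and 111 on C3H chow against 4417 on C57BL/6 chow. Myh6 had 132 on C3H Western against 2463 on C57BL/6 Western, and 73.8 on C3H chow against 2460 on C57BL/6 chow. Klf2, a flow-responsive factor of endothelium, had 2231 on C3H Western against 667 on C57BL/6 Western, and 2417 on C3H chow against 876 on C57BL/6 chow. The early genes Junb, Btg2 and Ccn1 were at least 2-fold lower with Western diet in both strains. By list median, brown fat and immediate early genes were thus highest on the array, C3H chow, on which Dll4, Hey1, both Sox17 sets and the other endothelial genes were highest as well. Single early genes did not all do so. Between the chow arrays 12 of 15 were higher in C3H and 3 were lower. Fos was a lower one, with 519 on C3H chow against 1487 on C57BL/6 chow. Macrophage markers summed to 5510, 4326, 3430 and 3556 and adipocyte markers to 61715, 60569, 83116 and 47817 in the same order. The part of tissue makeup and handling in these values was not tested. The 6 identity genes summed to 4341 on C3H Western against 5342 on C57BL/6 Western, and 4285 on C3H chow against 4869 on C57BL/6 chow.

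**Figure D4:**
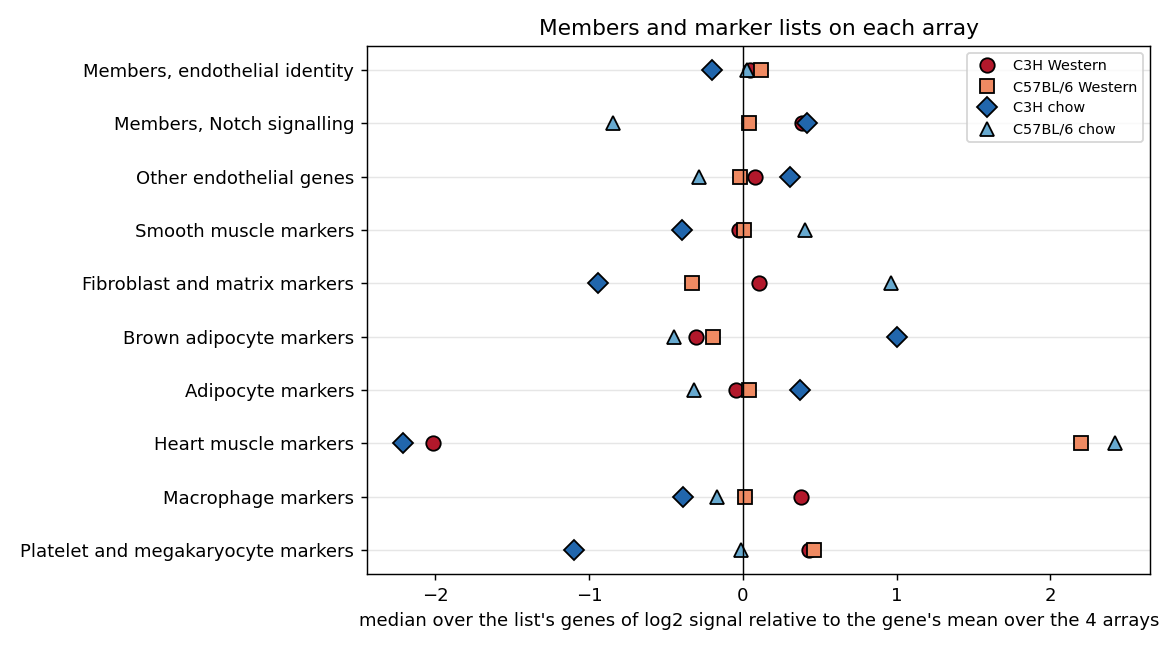
Median over each list of the log2 signal relative to the gene's mean over the 4 arrays, 1 point per array and list, signals under the floor included. The identity genes lie between -0.20 and 0.12 and heart muscle markers split by strain. The Notch point for C57BL/6 chow rests partly on signals of Dll4 and Hey1 under the floor and has no exact value.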

How the data were processed

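The authors deposited linear intensities of 22690 probe sets for 4 arrays (biotin-labelled cRNA from 8 ug of total RNA, 1-colour Affymetrix arrays, per the labels' protocols). The software that made the intensities, and its settings, were not given in the sources used here. Precision is limited by the number of arrays. After 64 control probe sets were left out, signals were quantile normalized on the log2 scale with limma 3.58.1 in R 4.3.3. No detection calls accompany the values, so signals at or under the 40th percentile (83.6) count as under the floor, and a fold against a signal under it is given as at least the ratio to the floor. The platform annotation named the genes (20380 probe sets name 1 gene), and of a gene with several the one with the highest mean log2 signal stands for it, with the other given too. All 15 member probe sets matched the RefSeq table of GRCm38.p6 by Entrez identifier. The additive limma fit had terms for strain and diet, with variances moderated by eBayes along a mean trend. Benjamini-Hochberg adjustment ran over the 14915 probe sets that 2 or more arrays had above the floor. The fit has 1 residual degree of freedom and a prior of 17.3. It was run on simulated data with independent noise of a common SD and additive strain effects. Those data held no interaction, so that run cannot show how the fit treats a diet response that differs by strain. The p-values of the fit rest on the prior and on how far the 4 arrays depart from additive strain and diet terms. That departure is the unreplicated interaction, which may be technical or a diet response that differs by strain. No replicate arrays measured the spread within a group. The 10 genes, the 16 further lists and the motifs were chosen with earlier results of these data known. All member probe sets are named. Of each other list, genes at least 2-fold different in the same direction by strain on both diets or by diet in both strains are named. Such genes had all 4 arrays above the floor. Up to 3 with the largest difference in a comparison that the text describes for that list are named too. Some genes with an array under the floor are named as well. Other calculations ran in Python 3.11.15 (pandas 2.3.3, numpy 2.4.6) and figures in matplotlib 3.10.9. The alternatives tried were other scalings (deposited values, cyclic loess, equal medians), other floors (25th or 60th percentile, none), thresholds of 1.5-fold and 3-fold, other uses of a gene's probe sets, and limma with no mean trend.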

Additional observations from a re-analysis of the deposited data

Results flagged for a closer look

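For 3 of the 8 member probe sets that no array had under the floor, the Western diet response ran opposite ways in the strains, which 54.8% of all 8740 such probe sets did as well. The response in C3H minus that in C57BL/6 was log2 2.02 for Jag1 (1421106_at, higher with Western diet in C3H and lower in C57BL/6). It was log2 -0.65 for Vwf and -0.11 for Cdh5 (1433956_at), both lower with Western diet in C3H and not lower in C57BL/6. With 1 array per group these differences were not tested. For Cdh5 the response in C57BL/6 was log2 0.00, and with the deposited values, equal medians or cyclic loess both strains ran the same way, so its opposite direction rests on the scaling.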

How the results depend on the processing

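No paired analysis was possible because each group has 1 array. Leaving out the C3H chow array, an alternative chosen after seeing the data, left 1 gene (against 4) past 2-fold in any comparison, but it also leaves 2 comparisons of 4, and the share of all genes was then 18.4% against 33.7%. The additive fit then has no residual. The median of the member genes between strains on chow was -0.27, and it was -0.44 with equal array medians and 0.014 with no floor. That of diet in C57BL/6 was 0.09, and it was 0.22 and 0.19 under the same changes, while diet in C3H gave 0.27 with equal array medians against 0.09. Equal array medians put the median of all probe sets with diet in C3H at 0.11 as well. The other alternatives moved the 4 medians by less than log2 0.1. Counts of genes at least 2-fold different are small and moved with most choices. Between strains on chow (1 gene) the count was 0 with the deposited values, cyclic loess, the 60th percentile floor or 3-fold, 2 with the 25th percentile floor, and 3 with no floor or at 1.5-fold. Between strains on Western diet (1 gene) it was 3 with the deposited values or at 1.5-fold, 2 with equal medians, cyclic loess, the 25th percentile floor, no floor or every probe set, and 0 with the 60th percentile floor, 3-fold or the mean of probe sets. With diet in C57BL/6 (0 genes) it was 1 with the deposited values, the 25th percentile floor or at 1.5-fold, and 2 with no floor. With diet in C3H (2 genes) it was 3 with the 25th percentile floor, no floor or at 1.5-fold, 1 with the deposited values, cyclic loess or at 3-fold, and 0 with the 60th percentile floor. In limma, 57 probe sets passed for strain, against 119 with no filter on low signal, 0 with no mean trend and 26 with 1 probe set per gene, and 0 passed for diet, against 5 with no filter. No member probe set passed in any of these limma settings, and the lowest adjusted p of a member was 0.109, with no filter. Under the 3 other scalings, paired log2 differences of single member probe sets moved by 0.1 or more in 37 of 180 cases (23 with equal medians, 12 as deposited, 2 with cyclic loess), and none that was at least 2-fold changed its sign. The causes of these changes were not tested. Signals near the floor limit Dll4, Jag1 and Hey1.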
